A study of Mus musculus with 24 samples.

Results

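The genes described here were 7 genes of the ADP-ribosylation response to viruses, namely *Parp9*, *Dtx3l*, *Parp14*, *Parp10*, *Parp11*, *Parp12* and *Zc3hav1*, with *Parp1* and *Parp2* as housekeeping comparators. They were chosen by name from a count table of 55487 genes. No measured value was in the rule, but earlier results of these data were known when it was made. All 7 passed the filter on low counts in every comparison. Counts came from 24 BRB-seq libraries, a bulk method that reads the 3′ ends of barcoded mRNAs, made from AML-12, an established mouse hepatocyte line, grown without dexamethasone in serum treated with charcoal and dextran. BSA cells (n = 4) received the albumin carrier and PAL cells (n = 4) received 0.25 mM palmitate, a fatty acid used to model steatosis. The remaining 4 groups of 4 libraries had the same palmitate and, over the final 24 hours, an enzymatically prepared siRNA pool (esiRNA), which was 200 nM against *Egfp* in CON, 100 nM against *Bmal1* in BMAL1, 100 nM against *Chrebp* in CHREBP, and a total of 200 nM against both genes in BOTH. Total esiRNA was therefore equal in CON and BOTH and equal in BMAL1 and CHREBP, but differed in BMAL1 or CHREBP against CON and in BOTH against CHREBP. By library position, column 1 held BSA above PAL, column 2 CON above BMAL1, and column 3 CHREBP above BOTH, so that column and *Chrebp* esiRNA cannot be told apart where column 3 is compared with column 2, nor column and transfection in CON against PAL.

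PARP enzymes move ADP-ribose from NAD onto proteins and nucleic acids. PARP1 and PARP2 are activated by DNA breaks, whereas the 7 genes above are known as interferon-stimulated genes in many cell types. Interferon receptors signal through JAK kinases to transcription factors, STAT2 and IRF9 among them, that bind interferon-stimulated response elements in promoters. PARP9 works in a complex with the ubiquitin ligase DTX3L, PARP10, PARP11, PARP12 and PARP14 attach single ADP-ribose units, and the catalytically inactive ZAP, encoded by *Zc3hav1*, binds viral RNA and directs its decay.

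The 7 genes lie at 5 loci in the mouse genome (GRCm38, GENCODE M21). *Parp14* (chromosome 16, 35832874 to 35871544, − strand), *Dtx3l* (35926511 to 35939151, − strand) and *Parp9* (35938470 to 35972605, + strand) form a cluster on chromosome 16 that spans 139732 bases. *Parp9* and *Dtx3l* are transcribed away from each other, and their annotated 5′ ends overlap by 682 bases. *Zc3hav1* (chromosome 6, 38305286 to 38354603, − strand) and *Parp12* (39086410 to 39118349, − strand) are 731806 bases apart. *Parp11* (127446840 to 127494261, + strand) lies farther along chromosome 6 and *Parp10* (76231174 to 76243441, − strand) on chromosome 15. *Parp10* shares 1401 annotated bases with *Plec* on the same strand, and the handling of reads in shared bases is not known, so its counts are uncertain to that extent. *Parp1* (180568924 to 180601254, + strand) is on chromosome 1 and *Parp2* (50807841 to 50821301, + strand) on chromosome 14.

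RefSeq promoter windows of 300 bases, 250 of them before the start, were on hand for 4 of the 7 genes (5 windows, GRCm38.p6) and not for *Parp9*, *Parp14* or *Parp10*. Both strands were searched for the core of the interferon-stimulated response element (GAAA, any 2 bases, GAAA), for TTCNNNGAA, the gamma-activated site of the interferon gamma response, and for CACGTG, the E-box bound by BMAL1 with CLOCK. They occurred in 3.44%, 8.3% and 7.15% of all 32851 windows. Paired E-boxes with any 5 bases between them, as in the strictest form of the carbohydrate response element bound by ChREBP, occurred in 0 windows. The window at the outer *Parp11* start was the only window of the 4 genes with the interferon core, read on the other strand at bases −44 to −35, and it held a gamma-activated site at −37 to −29 that shared 3 bases with it. The window at an inner *Parp11* start held an E-box, as did those of *Parp1* and *Parp2*. The windows of *Dtx3l*, *Parp12* and *Zc3hav1* held no such letters. The 250 bases before the start are shown for *Parp11*, which carries the interferon motifs, for *Parp12*, which rose strongly without them in this window, and for *Parp1*, the housekeeping comparator with an E-box. Capitals mark the matched motifs, and each is printed 5′ to 3′ on the strand of its gene (chr6:127446590-127446839 + strand for *Parp11*, chr6:39118350-39118599 − strand for *Parp12*, chr1:180568641-180568890 + strand for *Parp1*).
Parp11: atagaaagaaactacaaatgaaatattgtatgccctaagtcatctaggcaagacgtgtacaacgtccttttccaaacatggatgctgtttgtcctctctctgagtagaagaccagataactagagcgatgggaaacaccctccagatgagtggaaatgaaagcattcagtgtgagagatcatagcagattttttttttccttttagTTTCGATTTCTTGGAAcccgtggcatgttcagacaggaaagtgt
Parp12: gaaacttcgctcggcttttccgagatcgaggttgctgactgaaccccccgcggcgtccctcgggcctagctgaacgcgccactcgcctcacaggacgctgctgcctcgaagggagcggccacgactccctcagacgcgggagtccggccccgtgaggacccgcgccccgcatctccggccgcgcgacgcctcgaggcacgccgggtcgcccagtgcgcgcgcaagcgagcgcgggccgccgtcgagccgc
Parp1: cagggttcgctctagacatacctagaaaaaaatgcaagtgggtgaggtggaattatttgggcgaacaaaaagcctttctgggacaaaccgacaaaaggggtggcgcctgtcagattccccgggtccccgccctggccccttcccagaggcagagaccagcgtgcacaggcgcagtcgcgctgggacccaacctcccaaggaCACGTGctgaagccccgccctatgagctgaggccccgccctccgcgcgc
The upstream bases of *Parp12* were 73.6% G or C, those of *Parp1* 61.6% and those of *Parp11* 40.4%.

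Libraries held 5399700 to 11237474 gene counts. Counts of single members ran from 15 (*Parp14* in PAL replicate 1) to 3343 (*Parp12* in BOTH replicate 2), and the values below are counts divided by DESeq2 size factors of all 24 libraries. They are not adjusted for transcript length and are compared only within a gene. Of 14 hepatocyte markers, 12 had a mean of at least 1 CPM (counts scaled to equal library totals). The sum of all 14 was 6920 to 8490 CPM. The keratins *Krt18* and *Krt8* led with means of 4090 and 1690 CPM, while *Alb* was at 20.8, *Apoa1* at 0.998 and *Ahsg* at 0.299. Single markers moved with some comparisons, with 2 of 13 tested higher and 6 lower in PAL against BSA (6.65% and 7.60% of all genes tested), 2 of 13 higher and 1 lower in CON against PAL (1.59% and 0.920%), and 5 of 14 lower in BOTH against CON (3.75%), between -0.41 for *Serpina1b* and -0.17 for *Hnf4a* on the log2 scale. In CHREBP against CON, 0 of 14 markers were called with DESeq2 or edgeR. An unadjusted DESeq2 p was under 0.05 for 5 of them and for 10.5% of genes tested. The part of these markers in the results below was not tested. The leukocyte markers *Adgre1*, *Cd3e*, *Clec4f* and *Tyrobp* were at 0 in all libraries. *Cd68* had 5 to 27 counts per library (mean 1.57 CPM), *Csf1r* 0 to 17 and *Ptprc* 0 to 8. The sum of 10 leukocyte markers was 0.963 to 3.79 CPM over all groups. The targeted transcripts were weakly expressed. *Bmal1* (*Arntl* in the table) averaged 22.8 ± 6.64 in BOTH, 35.4 ± 6.29 in CHREBP, 26.0 ± 4.82 in BMAL1 and 44.7 ± 11.6 in CON, and *Chrebp* (*Mlxipl*) averaged 17.0 ± 4.91, 25.9 ± 4.75, 35.2 ± 8.69 and 35.6 ± 7.26 in the same order (SD, n = 4).

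All 7 antiviral genes had their 3 highest group means in the same order, CON below CHREBP below BOTH, and no CHREBP or BOTH library overlapped a CON library in any of them. The highest group mean was 38.9 times the lowest for *Parp14*, 25.7 times for *Parp12*, 16.3 times for *Dtx3l* and 15.2 times for *Parp9*. It was 5.78 times for *Parp10*, 3.97 times for *Zc3hav1* and 3.85 times for *Parp11*. For *Parp1* and *Parp2* it was 1.12 and 1.15 times, and every pair of neighbouring groups in their order overlapped. Among the 4 lower groups, only BSA and BMAL1 in *Parp9*, *Parp12* and *Zc3hav1* were neighbours without overlap. At the upper end, CHREBP and BOTH overlapped in 6 of the 7 genes, the exception being *Dtx3l*. A likelihood ratio test over the 4 esiRNA groups called all 7 genes (DESeq2 *Padj* from 2.05e-46 to 1.89e-14), where 9.92% of 13883 genes tested were called, and neither *Parp1* (*Padj* = 0.856) nor *Parp2* (*Padj* = 0.755). In every comparison below, *Parp1* and *Parp2* were not called with DESeq2 or edgeR, and *Parp1* in CON against PAL was the only case of an unadjusted p under 0.05. In such bulk libraries, more cells expressing a gene and more RNA per cell cannot be told apart.

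**Figure D1:**
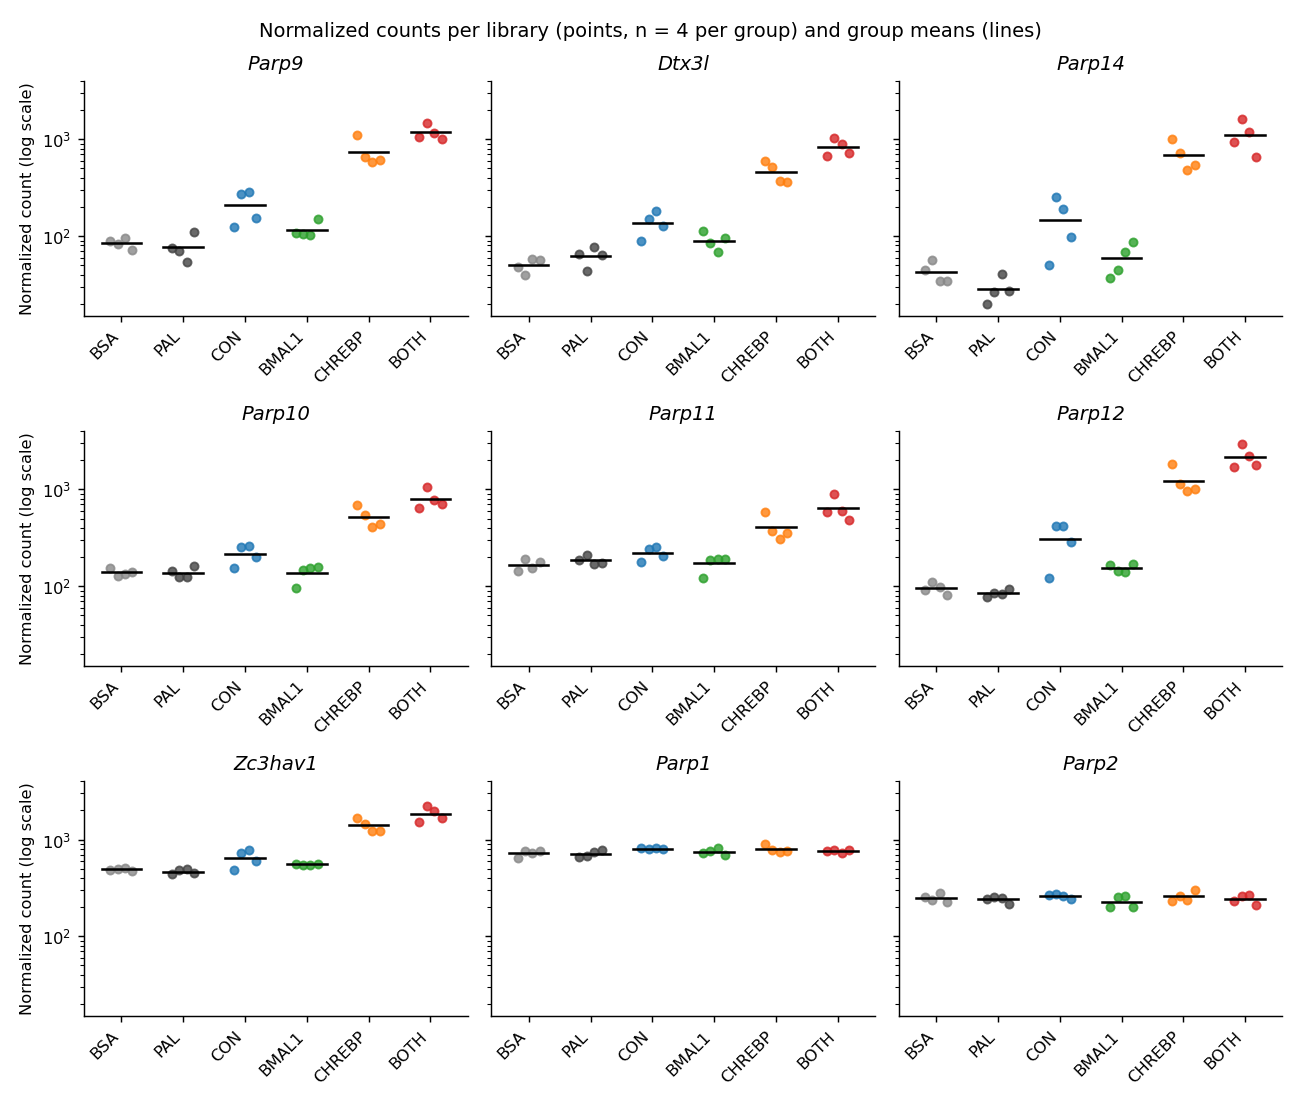
Normalized counts (vertical axis, log scale) of the 7 antiviral genes, *Parp1* and *Parp2* in each of 24 libraries (points, 4 per group) with group means (lines). The CHREBP and BOTH points lie above every CON point in the 7 antiviral genes, while the group means of *Parp1* and *Parp2* differ by no more than 1.12 and 1.15 times.

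Palmitate alone was compared in PAL and BSA, which differ in row but not in column. None of the 7 genes was called, at a *Padj* from 0.233 to 0.984 with DESeq2, and 0 of the 7 were under an unadjusted p of 0.05 or called with edgeR. Of 12827 genes tested, 14.3% were called in this comparison with DESeq2 and 15% with edgeR. The median log2 fold change of the 7 was -0.07, between -0.57 for *Parp14* and 0.32 for *Dtx3l*. The median over all genes tested lay between -0.0162 and 0.0048 in every comparison. *Parp14*, whose protein binds ADP-ribose through macrodomains, had normalized counts of 44.5, 56.1, 34.3 and 34.0 in BSA replicates 1 to 4 and 19.8, 26.2, 40.3 and 27.2 in PAL, where the groups overlapped. ZAP transcripts were 484, 500.0, 508 and 477 in BSA and 437, 483, 498 and 447 in PAL, also with overlap. PAL relative to BSA was 0.951-fold (95% interval 0.847 to 1.07) for *Zc3hav1* and 0.673-fold (95% interval 0.451 to 1.00) for *Parp14*.

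Transfection with the *Egfp* esiRNA was compared in CON and PAL, which both had palmitate. CON was higher in 6 of the 7 genes (DESeq2 *Padj* < 0.1), where 1.59% of 12928 genes tested were called higher, and the median log2 fold change of the 7 was 1.14. *Parp14* was 50.3, 255, 189 and 98.5 in CON replicates 1 to 4, with a log2 fold change against PAL of 2.38 (SE 0.54, *Padj* = 0.00139). *Parp12*, a zinc finger PARP, was 123, 415, 416 and 288 in CON and 76.6, 84.5, 83.9 and 92.5 in PAL, a log2 fold change of 1.88 (SE 0.39, *Padj* = 0.000293). In both genes every CON library was above every PAL library, although CON replicate 1 stood close to them.

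*Parp9* was 123, 273, 285 and 153 in CON and 75.2, 70.4, 53.7 and 111 in PAL (log2 fold change 1.42 (SE 0.37, *Padj* = 0.0105)). Its partner *Dtx3l* was 89.8, 150.4, 183 and 128 in CON and 66.0, 43.3, 77.2 and 64.5 in PAL (log2 fold change 1.14 (SE 0.21, *Padj* = 2.98e-05)). These 2 genes also did not overlap between the groups, which brought the number without overlap to 4 of 7, where 4.18% of all genes tested were higher without overlap. *Parp10* rose by 0.65 (SE 0.16, *Padj* = 0.0054) and *Zc3hav1* by 0.48 (SE 0.12, *Padj* = 0.00506) on the log2 scale, each with overlapping groups. *Parp11*, which is known to affect the stability of a type I interferon receptor chain, was 178, 243, 252 and 208 in CON and 186, 211, 169 and 173 in PAL, and its log2 fold change of 0.26 (SE 0.13, *Padj* = 0.495) was not past the threshold. The *Parp1* values, 793 to 824 in CON and 653 to 787 in PAL, did not overlap either, but the log2 fold change was 0.16 (SE 0.07, *Padj* = 0.394).

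The CON libraries were unequal. Replicate 1 was the lowest of the 4 in all 7 genes, and replicate 3 the highest in 6. Within CON, the highest library was 5.07 times the lowest for *Parp14*, 3.38 times for *Parp12* and 2.31 times for *Parp9*, but 1.04 times for *Parp1* and 1.15 times for *Parp2*. The same order was seen in the mean log2(normalized count + 1) of 30 other interferon response genes, which was 4.07 in CON replicate 1, 5.81 in replicate 4, 6.99 in replicate 2 and 7.05 in replicate 3. That score was 2.65 to 2.95 in PAL. Without CON replicate 3, 3 of the 7 genes remained called in CON against PAL (*Parp14*, *Parp12* and *Dtx3l*), where 0.937% of genes tested were called higher. Without CON replicate 2, *Parp9* and *Parp10* were not called (*Padj* = 0.121 and 0.104, with 0.987% of genes tested called higher), without PAL replicate 2 *Zc3hav1* was not (*Padj* = 0.219), and with the replicate number as a block *Parp9* was not (*Padj* = 0.137).

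**Figure D2:**
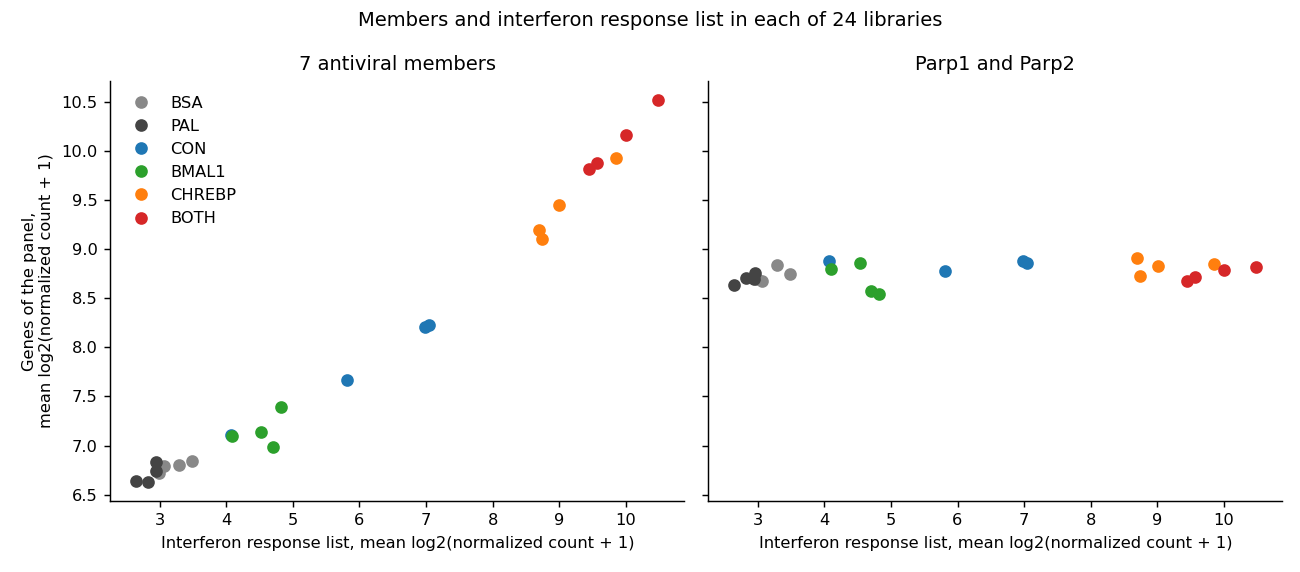
Mean log2(normalized count + 1) of the 7 antiviral genes (left) and of *Parp1* and *Parp2* (right) against that of 30 interferon response genes in each of 24 libraries, coloured by group. On the left, CON replicate 1 lies within the range of the BMAL1 libraries on the vertical axis at 7.11 and just below them on the horizontal axis at 4.07, the other CON libraries lie between 7.67 and 8.23, and the *Parp1* and *Parp2* values stay between 8.54 and 8.91.

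*Bmal1* esiRNA was compared with the *Egfp* esiRNA in BMAL1 and CON, at 100 and 200 nM. All 7 log2 fold changes were below 0, from -1.33 for *Parp14* to -0.23 for *Zc3hav1*, with a median of -0.64. None passed the threshold (DESeq2 *Padj* from 0.215 to 0.855), where 0.49% of 13883 genes tested, or 0.800% of the 8500 that DESeq2 gave an adjusted p, were called. Unadjusted p-values were under 0.05 for 5 of the 7 and for 6.22% of genes tested, and edgeR called 0 (0.101% of genes tested). *Parp12* was 164, 143, 139 and 171 in BMAL1, a log2 fold change of -1.01 (SE 0.34, *Padj* = 0.215), and *Parp14* was 36.7, 44.6, 68.0 and 86.8, a log2 fold change of -1.33 (SE 0.47, *Padj* = 0.274). CON replicate 1 lay below the BMAL1 libraries in *Parp12* and inside their range in *Parp14*. Without it, 5 genes were lower in BMAL1 with a *Padj* < 0.1, where 0.617% of genes tested were called lower, namely *Parp9*, *Dtx3l*, *Parp14*, *Parp10* and *Parp12*, with log2 fold changes of -1.03, -0.79, -1.61, -0.77 and -1.28.

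*Chrebp* esiRNA was compared with the *Egfp* esiRNA in CHREBP and CON, at 100 and 200 nM and in different columns. All 7 genes were higher in CHREBP, where 2.65% of 13883 genes tested were called higher. The median log2 fold change was 1.73, and all 7 genes had no overlap, which 5.01% of genes tested shared in this direction. *Parp14* was 1017, 720.5, 477 and 537 in CHREBP, a log2 fold change of 2.21 (SE 0.46, *Padj* = 0.000163) or 4.62-fold (95% interval 2.46 to 8.68). *Parp12* was 1831, 1135, 956 and 1001, a log2 fold change of 1.98 (SE 0.34, *Padj* = 7.75e-07) or 3.95-fold (95% interval 2.50 to 6.25). CHREBP replicate 1 was the highest of the 4 libraries in all 7 genes.

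The divergent pair rose by similar folds, with *Parp9* at 1101, 655, 586 and 617 (log2 fold change 1.82 (SE 0.29, *Padj* = 7.59e-08)) and *Dtx3l* at 592, 515, 369 and 361 (log2 fold change 1.73 (SE 0.24, *Padj* = 3.43e-10)). The log2 ratio of *Parp9* to *Dtx3l* counts was 0.670 ± 0.234 in CHREBP, 0.521 ± 0.105 in BOTH and 0.377 ± 0.320 in BMAL1, compared with 0.555 ± 0.256 in CON, 0.288 ± 0.602 in PAL and 0.743 ± 0.300 in BSA (SD, n = 4), and the libraries of every pair of groups overlapped in it. *Zc3hav1*, the gene with the smallest relative spread in BMAL1 (562, 544, 553 and 558), was 482, 725, 786 and 599 in CON and 1687, 1450.4, 1236 and 1228 in CHREBP. Its log2 fold change of 1.11 (SE 0.13, *Padj* = 3.51e-13) had the lowest *Padj* of the 7. *Parp10*, a mono-ADP-ribosyltransferase that also binds ubiquitin, was 153 to 259.9 in CON and 410.1 to 693 in CHREBP (log2 fold change 1.27 (SE 0.23, *Padj* = 4.42e-06)). *Parp11* was 178 to 252 in CON and 309 to 591 in CHREBP (log2 fold change 0.89 (SE 0.24, *Padj* = 0.0107)), the smallest rise of the 7. *Parp1* was 907, 779.9, 749 and 763 and its fold change was 0.989-fold (95% interval 0.893 to 1.10). For *Parp2* the fold change was 0.980-fold (95% interval 0.834 to 1.15).

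CHREBP and BMAL1 received the same esiRNA amount of 100 nM but differed in column and row. All 7 genes were higher in CHREBP than in BMAL1, where 2.9% of genes tested were called higher, with log2 fold changes from 1.23 for *Parp11* and 1.34 for *Zc3hav1* to 2.99 for *Parp12* and 3.54 for *Parp14* (DESeq2 *Padj* from 9.05e-20 to 3.18e-05). No CHREBP library overlapped a BMAL1 library in any of them, which 5.05% of genes tested shared in this direction.

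**Figure D3:**
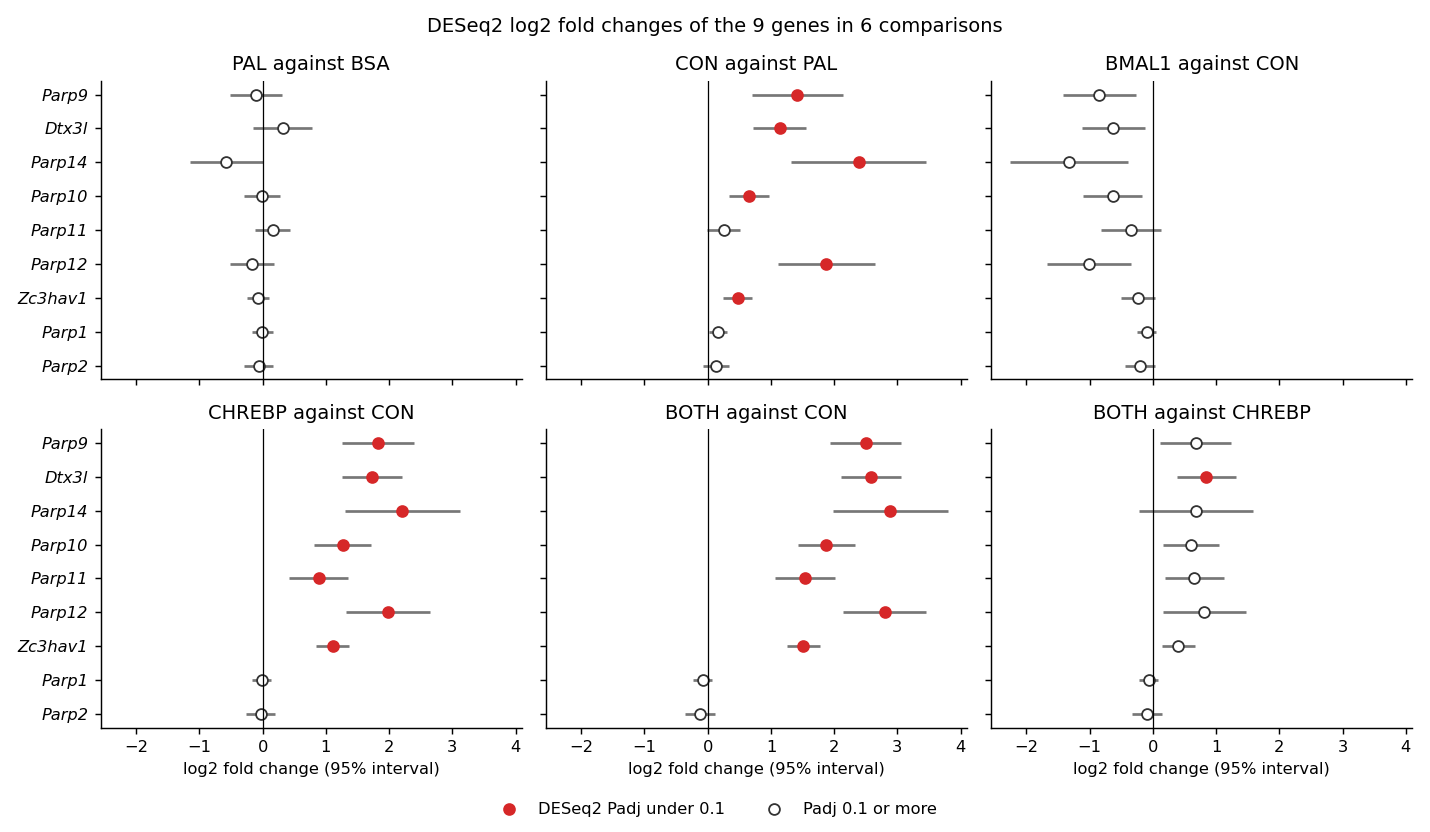
DESeq2 log2 fold changes (points) with 95% intervals (lines) of the 9 genes in 6 comparisons, with filled points for *Padj* under 0.1. All 7 antiviral genes are filled in CHREBP and BOTH against CON, 6 are filled in CON against PAL, only *Dtx3l* is filled in BOTH against CHREBP, and *Parp1* and *Parp2* are open throughout.

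BOTH and CON received the same total of 200 nM but differed in column and row. All 7 genes were higher in BOTH, where 5.99% of genes tested were called higher, with a median log2 fold change of 2.50. *Parp14* was 944, 1605, 1202 and 657 in BOTH, a log2 fold change of 2.89 (SE 0.46, *Padj* = 3.11e-08), and *Parp12* was 1719, 2955, 2209 and 1775, a log2 fold change of 2.80 (SE 0.34, *Padj* = 1.88e-14). *Parp9* was 1068, 1468, 1172 and 1016 (log2 fold change 2.50 (SE 0.29, *Padj* = 1.24e-15)) and *Dtx3l* was 677, 1024, 887 and 715 (log2 fold change 2.58 (SE 0.24, *Padj* = 2.96e-24)). BOTH replicate 2 was the highest of its group in all 7 genes, and no BOTH library overlapped a CON library in any, which 6.42% of genes tested shared in this direction. *Zc3hav1* was 1503, 2244, 1969 and 1685 (log2 fold change 1.51 (SE 0.13, *Padj* = 2.33e-26)), *Parp10* was 638 to 1053 (1.88 (SE 0.23, *Padj* = 3.83e-14)) and *Parp11* was 489 to 889 (1.54 (SE 0.24, *Padj* = 9.97e-09)). *Parp1* was 728 to 781 in BOTH, below all CON libraries, with a log2 fold change of -0.08 (SE 0.08, *Padj* = 0.669).

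Against BMAL1, BOTH differed by *Chrebp* esiRNA, by 100 nM of total esiRNA and by column. All 7 genes were higher in BOTH, where 6.35% of genes tested were called higher, and the log2 fold changes ran from 1.74 for *Zc3hav1* to 4.21 for *Parp14* (DESeq2 *Padj* from 5.59e-36 to 5.49e-13). Against CHREBP, from which BOTH differed by *Bmal1* esiRNA, by 100 nM and by row, all 7 estimates were above 0 with a median of 0.68. Only *Dtx3l* was called (0.85 (SE 0.23, *Padj* = 0.0425)), where 0.843% of genes tested, or 1.22% of those with an adjusted p, were called higher. Of the 7 genes, 6 were under an unadjusted p of 0.05, as were 7.40% of genes tested. *Dtx3l* was also the gene without overlap between CHREBP and BOTH, which 1.94% of genes tested shared in this direction. This call rested on few libraries. Leaving out CHREBP replicate 3 or 4, or BOTH replicate 2 or 3, left 0 genes called, with *Dtx3l* at 0.755, 0.747, 0.727 and 0.811 on the log2 scale, while leaving out CHREBP replicate 1 left 6, all but *Parp14*, where 1.32% of genes tested were called higher. Leaving out BOTH replicate 1 or 4 gave 2 genes, where 0.906% and 1.14% of genes tested were called higher.

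The interaction term asked whether the *Bmal1* esiRNA effect differed with and without *Chrebp* esiRNA. It was positive for all 7 genes, with a median of 1.47 on the log2 scale, and was called for 5, where 1.20% of genes tested, or 1.79% of those with an adjusted p, were called positive. These were *Parp12* at 1.82 (SE 0.48, *Padj* = 0.0182), *Parp9* at 1.52 (SE 0.41, *Padj* = 0.0245), *Dtx3l* at 1.47 (SE 0.34, *Padj* = 0.00727), *Parp10* at 1.25 (SE 0.33, *Padj* = 0.0181) and *Zc3hav1* at 0.63 (SE 0.19, *Padj* = 0.0595). The *Zc3hav1* call was lost in 10 of 16 fits that left out 1 library (CON replicate 2 or 3, BMAL1 replicate 2, 3 or 4, CHREBP replicate 3 or 4, and BOTH replicate 2, 3 or 4, with a *Padj* up to 0.232 and an estimate of 0.524 to 0.749 over all 16), with edgeR (*Padj* = 0.166) and with size factors from *Parp1* and *Parp2* (*Padj* = 0.184), while the other 4 genes were called in all 16. *Parp14* (2.01 (SE 0.66, *Padj* = 0.106)) and *Parp11* (1.00 (SE 0.34, *Padj* = 0.131)) were not past the threshold with DESeq2, although *Parp14* was with edgeR (*Padj* = 0.0774) and with DESeq2 without the filter on low counts (*Padj* = 0.0976). *Parp1* and *Parp2* were at 0.04 and 0.11. Total esiRNA fell by 100 nM from CON to BMAL1 and rose by 100 nM from CHREBP to BOTH, so that the amount of esiRNA and the interaction cannot be told apart.

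Beside these changes, genes of the same pathways were counted from lists. Of 8 other PARP family genes tested, 1 was higher and 0 lower in CHREBP against CON, and 2 were higher and 0 lower in BOTH, where 2.65% and 5.99% of all genes tested were called higher. *Parp3*, a PARP of the DNA damage response, rose by 0.50 (SE 0.14, *Padj* = 0.011) in CHREBP and 0.91 (SE 0.14, *Padj* = 1.57e-09) in BOTH on the log2 scale, and *Parp4*, of the vault particle, rose by 0.37 (SE 0.12, *Padj* = 0.0336) in BOTH. *Parp16*, of the endoplasmic reticulum, was higher in BMAL1 than in CON (0.34 (SE 0.10, *Padj* = 0.0741)) with DESeq2 but was not called with edgeR. In PAL against BSA, 2 of the 8 fell (7.60% of all genes tested), *Parp8* with a log2 fold change of -1.19 (SE 0.17, *Padj* = 6.12e-10) and *Parp16* with one of -0.23 (SE 0.09, *Padj* = 0.0895). Of 8 genes that remove or read ADP-ribose, 0 were called in CHREBP or BOTH against CON with DESeq2 or edgeR, with 1 and 0 under an unadjusted p of 0.05. *Macrod1*, a macrodomain hydrolase, was lower in PAL than in BSA (-0.63 (SE 0.07, *Padj* = 7.16e-17)) and in CON than in PAL (-0.24 (SE 0.07, *Padj* = 0.0673)). Of the 4 Deltex ligases other than *Dtx3l* (3 with an adjusted p in CHREBP against CON), 0 were called in CHREBP or BOTH against CON with DESeq2 or edgeR, with 1 and 2 under an unadjusted p of 0.05.

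ZAP acts with cofactors. Of 5 listed, 3 rose in CHREBP and in BOTH against CON, where 2.65% and 5.99% of genes tested were called higher. They were *Trim25*, a ubiquitin ligase that aids ZAP (0.74 (SE 0.13, *Padj* = 4.66e-06) in CHREBP and 1.05 (SE 0.13, *Padj* = 3.78e-13) in BOTH), *Rnf135*, a ubiquitin ligase of RNA sensing (0.86 (SE 0.13, *Padj* = 3.27e-08) and 1.15 (SE 0.13, *Padj* = 1.39e-15)), and *N4bp1*, a ribonuclease (0.58 (SE 0.13, *Padj* = 0.000618) and 0.85 (SE 0.13, *Padj* = 3.55e-09)). *Trim25* also rose in CON against PAL (0.54 (SE 0.10, *Padj* = 1.54e-05)). Of 8 tested genes that supply NAD, the substrate of PARPs, 7 of them with an adjusted p, only *Nampt*, the rate-limiting enzyme of NAD salvage, was called, at 1.18 (SE 0.21, *Padj* = 3.84e-06) in CHREBP and 1.75 (SE 0.21, *Padj* = 2.91e-14) in BOTH against CON. Over all genes tested, 2.65% and 5.99% were called higher in these comparisons. *Nampt* also rose in CON against PAL (0.71 (SE 0.15, *Padj* = 0.000243)) and had an interaction of 1.07 (SE 0.30, *Padj* = 0.0351).

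Of 9 reported genes of interferon receptor signalling, 2 rose in CON against PAL, 2 in CHREBP and 2 in BOTH against CON, with 0 lower in each. Over all genes tested, 1.59%, 2.65% and 5.99% were called higher in the same order. In each comparison the 2 genes were *Stat2* and *Irf9*, which act together as transcription factors downstream of the type I receptor. *Stat2* was higher by 1.13 (SE 0.27, *Padj* = 0.00305) in CON than in PAL, by 1.71 (SE 0.23, *Padj* = 1.41e-10) in CHREBP than in CON and by 2.42 (SE 0.23, *Padj* = 9.42e-23) in BOTH than in CON. *Irf9* was higher by 1.26 (SE 0.28, *Padj* = 0.00093), 0.94 (SE 0.20, *Padj* = 0.000225) and 1.11 (SE 0.20, *Padj* = 1.69e-06) in the same order. In PAL against BSA, 0 of the 9 were higher and 4 were lower, where 6.65% and 7.6% of genes tested were called. Among the 4 were the receptor chains *Ifnar2* (-0.60 (SE 0.09, *Padj* = 5.39e-10)) and *Ifngr2* (-0.38 (SE 0.10, *Padj* = 0.00168)), and *Stat2* (-0.34 (SE 0.13, *Padj* = 0.0815)). Of the 30 genes of the interferon response list, 27 had at least 25 summed counts in CON and BMAL1, and all 27 were higher in CHREBP and in BOTH than in CON, where 2.65% and 5.99% of genes tested were called higher. *Oas2*, *Isg15* and *Ddx60* passed the filter only through CHREBP and BOTH, so that their direction was fixed by it. In BMAL1 against CON, 13 of the 26 with an adjusted p were lower and 0 higher with DESeq2, and edgeR called 5 of all 30, where 0.324% and 0.072% of genes tested were called lower with the respective tools. The mean log2(normalized count + 1) was taken over all 30 genes, with *Oas2*, *Isg15* and *Ddx60* included. It was 9.88 ± 0.47 in BOTH, 9.08 ± 0.54 in CHREBP, 4.54 ± 0.32 in BMAL1 and 5.98 ± 1.39 in CON (SD, n = 4). Its part in the changes of the 7 genes was not tested.

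**Figure D4:**
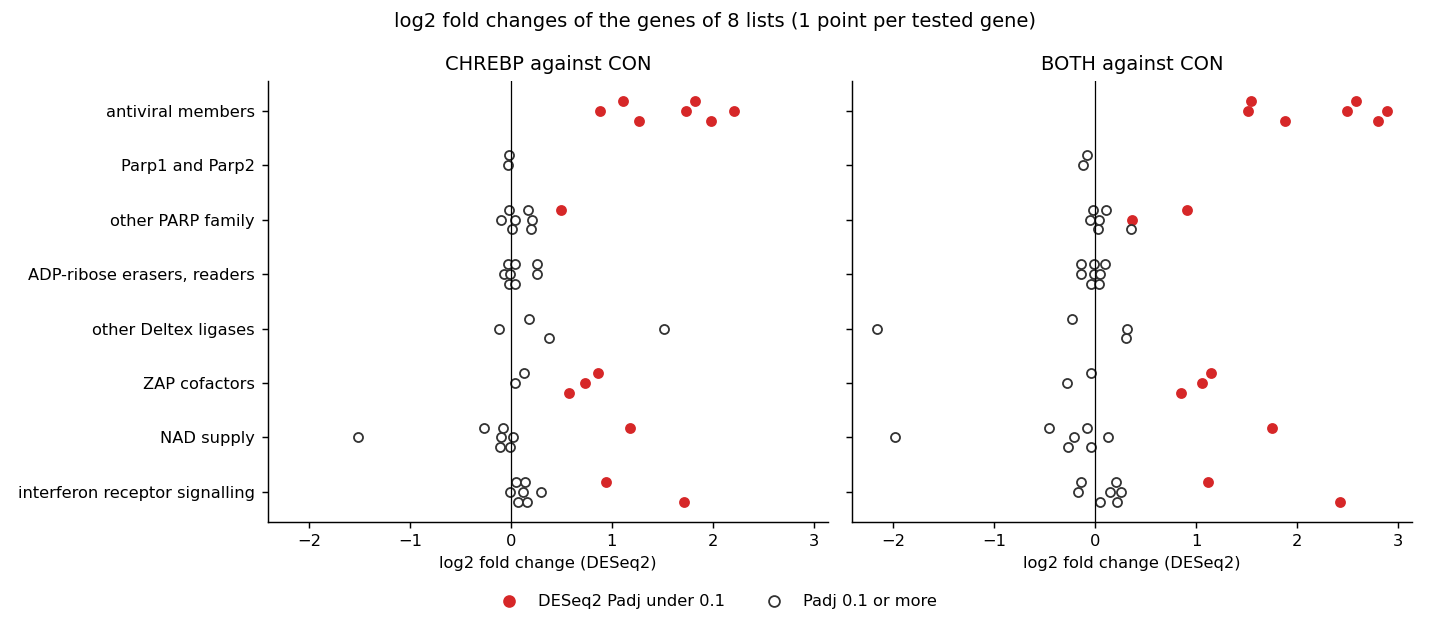
DESeq2 log2 fold changes of CHREBP (left) and BOTH (right) against CON, with 1 point per tested gene of 8 lists, filled where *Padj* was under 0.1. The filled points are the 7 antiviral genes, 1 and then 2 other PARP genes, 3 ZAP cofactors, *Nampt*, and *Stat2* and *Irf9*.

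The 7 genes followed each other closely. Over the 24 libraries, Pearson's r of log2(normalized count + 1) between pairs of them ran from 0.923 to 0.991 with a median of 0.976 (21 pairs). Between any of the 7 and *Parp1* or *Parp2* it ran from 0.0493 to 0.416 (14 pairs). After removal of the group means the median over the 21 pairs was 0.695, with a range of 0.277 to 0.903. These values are descriptions, since the libraries share groups and size factors. Among 10564 other genes with a mean of at least 20, the 10 most like the mean profile of the 7 genes included *Nampt*, *Helz2*, *Ifi204*, *Rnf213*, *Ifi35*, *Oas1g*, *Stat2*, *Znfx1* and *Tor3a*, with r from 0.990 to 0.995 over 24 libraries. *Nampt* was nearest (r = 0.995), with mean normalized counts of 1223 in BOTH, 826 in CHREBP, 364 in CON, 257 in BMAL1, 238 in BSA and 222 in PAL. *Rnf213*, a large ubiquitin ligase, averaged 334 in PAL, 1059 in CON and 6252 in BOTH. *Oas1g* and *Ifi204* belong to families of similar genes, and reads of such copies may be split between them. *Oas1g* met the required mean of 20 only through BOTH (group mean 115) and CHREBP (52.2). Its next highest group mean was 4.12, with the *Egfp* esiRNA. The direction of its profile was therefore fixed by this filter, and its r cannot be read as a test of likeness.

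Genes beside the 5 loci were examined as well, by a rule of position chosen after the data were seen, which took the 2 nearest tested protein-coding genes on each side. Of these 20 neighbours, 19 of them with an adjusted p, 0 were called in CHREBP against CON with DESeq2 or edgeR (2 under an unadjusted p of 0.05), and their log2 fold changes ran from -0.05 to 0.45 with a median of 0.10. *Hspbap1*, 4397 bases from *Parp14*, was at 0.124 (SE 0.175, *Padj* = 0.916), *Kpna1*, 6145 bases from *Parp9*, at 0.114 (SE 0.130, *Padj* = 0.877), and *Zc3hav1l*, a paralog 6027 bases from *Zc3hav1*, at 0.04 (SE 0.18, *Padj* = 0.984). *Plec*, which shares bases with *Parp10*, was at 0.115 (SE 0.0942, *Padj* = 0.765). *Grina*, 3323 bases from *Parp10*, was at 0.224 (SE 0.0863, *Padj* = 0.175). *Tbxas1*, 1825 bases from *Parp12*, was at 0.452 (SE 0.954) without an adjusted p. In BOTH against CON, 3 of the 20 were higher and 0 lower, where 5.99% of genes tested were called higher, namely *Grina* (0.45, SE 0.09, *Padj* = 8.79e-06), *Tead4* (0.42, SE 0.10, *Padj* = 0.00065) and *Ccnd2* (0.25, SE 0.08, *Padj* = 0.0368). *Tead4* lay 730027 bases and *Ccnd2* 294647 bases from *Parp11*. In CON against PAL, 0 of 19 tested neighbours were called with either tool, with 3 under an unadjusted p of 0.05.

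**Figure D5:**
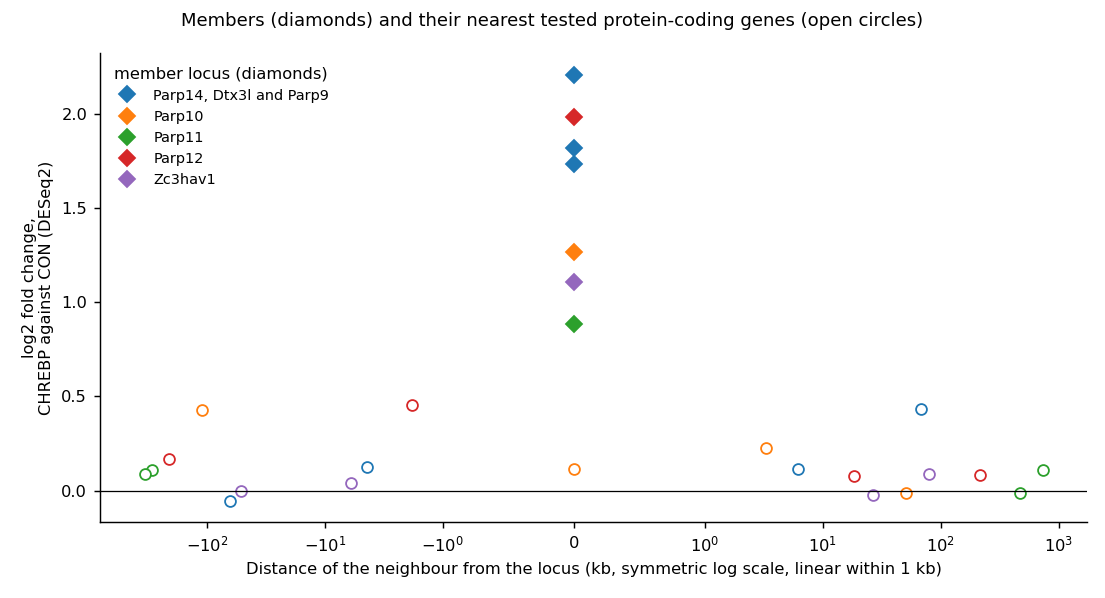
DESeq2 log2 fold change of CHREBP against CON (vertical axis) for the 7 antiviral genes (diamonds at distance 0) and the 20 nearest tested protein-coding neighbours (open circles) by distance from the locus in kb on a symmetric log axis, coloured by locus. The diamonds lie between 0.89 and 2.21 and the circles between -0.05 and 0.45.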

How the data were processed

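Gene expression was measured in 24 BRB-seq libraries. The authors demultiplexed reads with the BRB-seq tools, aligned them to mm10 with STAR and counted them with HTSeq (featureCounts is also named), and deposited raw counts per gene. Versions, annotation, strand and molecular identifiers were not given in the sources used here. Lines for reads that were not aligned (24.9% to 28.0% per library) or had no feature (5.11% to 6.47%) were left out. Groups came from the labels, which do not say that replicates were separate cultures, so that p-values measure the spread between these libraries. All 36 replicate pairs differed by more than counting noise (chi-square per degree of freedom 2.69 to 23.1). DESeq2 1.42.0 in R 4.3.3 tested genes with at least 25 summed counts, by Wald tests within PAL and BSA, within CON and PAL, and within the 16 esiRNA libraries. Benjamini-Hochberg adjustment (*Padj* < 0.1) ran over the genes kept by DESeq2's independent filtering. That filtering left 0 to 5383 genes per comparison without an adjusted p, and these count as tested and not called in the shares. edgeR 4.0.16, other scalings and filters, a replicate block, other sets of libraries in the fit and leaving out each library were alternatives. The procedures were tested on simulated data. Members and lists were chosen with earlier results of these data known. Of each list, up to 3 called genes per comparison with a mean of at least 20 are named, by largest change. Results for 2 genes of the lists are not reported here.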

Additional observations from a re-analysis of the deposited data

Results flagged for a closer look

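In each of 54 sets of 4 libraries (9 genes in 6 groups), the highest and lowest library were compared with the others by Dixon's ratio, and 4 sets passed the 95% critical value for 4 values, where chance flags about 1 in 20 sets. *Parp9* was 149.9 in BMAL1 replicate 4, with the next library at 108.6, and 1101 in CHREBP replicate 1, with the next at 655. *Parp10* was 95.03 and *Parp11* was 122.2 in BMAL1 replicate 1, with the next libraries at 147.7 and 185.9. BMAL1 replicate 1 also held the fewest gene counts of its group (5570803). CHREBP replicate 1 was the highest of its group in all 7 antiviral genes and in the interferon response list (9.86 against 8.70 to 9.01).

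The effect of *Bmal1* esiRNA differed between cells with and without *Chrebp* esiRNA for 5 genes, by the DESeq2 interaction term on the log2 scale. It was 1.52 for *Parp9*, 1.47 for *Dtx3l*, 1.25 for *Parp10*, 1.82 for *Parp12* and 0.63 for *Zc3hav1*, with *Padj* values of 0.0245, 0.00727, 0.0181, 0.0182 and 0.0595. The *Zc3hav1* call was lost in 10 of 16 fits that left out 1 library and with edgeR. Total esiRNA differed between the groups of this term as well.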

How the results depend on the processing

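The calls of all 7 genes in CHREBP against CON, BOTH against CON, CHREBP against BMAL1, BOTH against BMAL1 and the likelihood ratio test, and of 0 genes in PAL against BSA, kept their number under every alternative. For CON against PAL the number called was 3 to 6 when 1 library was left out, for BMAL1 against CON 0 to 5, for BOTH against CHREBP 0 to 6, and for the interaction 4 to 7. Over these fits, the share of all genes tested that was called in the same direction was 0.937% to 1.59%, 0.0799% to 0.617%, 0.356% to 1.32% and 0.638% to 1.74% in the same order. With all 24 libraries in 1 fit, 2 genes were lower in BMAL1 than in CON (*Parp10* and *Parp12*, where 0.407% of genes tested were lower) and 4 were higher in BOTH than in CHREBP (0.992% of genes tested). With the libraries of only the 2 groups, these numbers were 1 (*Parp10*, with 0.571% of genes tested lower) and 4 (0.583% higher). With size factors from *Parp1* and *Parp2*, BOTH against CHREBP gave 4 (1.32% higher). That scaling moved the median log2 fold change of all genes to -0.155 in CON against PAL and 0.125 in BMAL1 against CON. Calls over all genes went from 206 higher and 119 lower to 74 and 2298 in CON against PAL, from 23 and 45 to 212 and 29 in BMAL1 against CON, from 368 and 107 to 328 and 29 in CHREBP and from 831 and 520 to 1125 and 156 in BOTH against CON, from 403 and 127 to 264 and 336 in CHREBP against BMAL1, and from 117 and 21 to 183 and 6 in BOTH against CHREBP. With edgeR in place of DESeq2, 14 rather than 68 genes were called in BMAL1 against CON, 53 rather than 138 in BOTH against CHREBP and 122 rather than 204 in the interaction. The cause of these shifts was not tested.

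The replicate numbers did not pair the libraries. Deviations of same-numbered libraries had a mean correlation of -0.072 to 0.11 over the 15 pairs of groups, and in 0 of them were all pairs over 0.1. With the replicate number as a block, 5 genes were called in CON against PAL, without *Parp9* (log2 fold change 1.38, DESeq2 *Padj* = 0.137), where 1.02% of genes tested were called higher, and the numbers in the other comparisons were those given above.

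The sign changed only for values near 0 that passed no threshold. With size factors from *Parp1* and *Parp2*, the log2 fold change of *Parp10* was 0.00398 and that of *Parp1* 0.0131 in PAL against BSA, and that of *Parp2* was -0.0277 in CON against PAL. Under the same scaling *Parp1* was 0.0252 in BMAL1, 0.00217 in CHREBP and 0.0107 in BOTH against CON, -0.0231 in CHREBP and -0.0145 in BOTH against BMAL1, 0.00851 in BOTH against CHREBP and -0.0167 in the interaction. When 1 library was left out, the values in PAL against BSA ran from -0.349 to 0.0367 for *Parp9*, -0.0995 to 0.0479 for *Parp10* and -0.0585 to 0.035 for *Parp1*. In CHREBP against CON they ran from -0.0782 to 0.0153 for *Parp1* and -0.107 to 0.0172 for *Parp2*, and *Parp1* ran from -0.0209 to 0.069 in BOTH against BMAL1 and -0.00543 to 0.0984 in the interaction.

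In the interaction, the *Zc3hav1* call was lost in 10 of 16 fits that left out 1 library, with edgeR (log2 0.63, *Padj* = 0.166) and with size factors from *Parp1* and *Parp2* (0.573, *Padj* = 0.184). *Parp14* was called with edgeR (2.01, *Padj* = 0.0774), without the filter on low counts (*Padj* = 0.0976) and in 5 of the 16 fits, and *Parp11* with size factors from *Parp1* and *Parp2* (*Padj* = 0.0299) and in 3. The lowest count of any member was 15 (*Parp14* in PAL replicate 1).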

Other observations

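*Tiparp*, the PARP induced by the aryl hydrocarbon receptor and known to restrain type I interferon signalling, was chosen for mention after its values were seen. Its mean normalized counts were 245 ± 90.6 in BOTH, 232 ± 13.1 in CHREBP, 243 ± 21.3 in BMAL1, 248 ± 14.7 in CON, 249 ± 22.5 in PAL and 233 ± 6.50 in BSA (SD, n = 4). It was called in none of the comparisons of these groups with DESeq2. Against CON, its log2 value was -0.10 (SE 0.18, *Padj* = 0.94) for CHREBP and -0.02 (SE 0.18, *Padj* = 0.979) for BOTH. *Parp8* averaged 150.4 ± 14.03 in BSA, and its means with palmitate were lower, at 66.6 ± 13.0 in PAL, 93.1 ± 5.59 in BOTH, 73.5 ± 5.38 in CHREBP, 80.5 ± 12.1 in BMAL1 and 72.5 ± 17.4 in CON. *Parp3* averaged 372 ± 74.9 in BOTH, 281 ± 37.4 in CHREBP, 184 ± 16.5 in BMAL1, 198 ± 15.3 in CON, 163 ± 10.9 in PAL and 190.1 ± 6.50 in BSA.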
